A study of Mus musculus with 9 samples.

Results

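The 10 genes described here are Phgdh, Psat1, Psph, Shmt2, Mthfd2, Asns, Atf4, Ddit3, Trib3 and Chac1, the transcription factor gene Atf4 and genes it is known to induce, most of them for the synthesis of serine, glycine and asparagine. They were chosen by name out of 19505 genes with a symbol on the array, with their levels by group and by array number already known. Their differences between groups and between numbers are therefore given as a description, with no test. The brightest probe set of each gene was used, which mattered for Ddit3 alone, the only member with more than 1. RNA came from macrophages grown from the bone marrow of wild-type C57BL/6 mice, whose age is not given in the sources used here. Marrow cells were cultured for 7 days with 10% serum plus the growth factor M-CSF, given as 10 ng/ml in one description and 20 ng/ml in another. In every group, the vehicle controls included, the cells were then driven to the alternatively activated state with 20 ng/ml interleukin 4 (IL-4) for 24 h. The groups, with 3 arrays each, were vehicle, lipocalin 2 (LCN2, a secreted iron-siderophore binding protein) added on day 7 at a dose not given, and LCN2 at 150 ng/ml from day 0. Within each group the array titles carry the numbers 1, 2 and 3. Whether arrays of a group stem from separate mice or cultures is not given, so every error and p-value below measures only the spread between these arrays, which may be technical.

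ATF4 is a transcription factor whose protein is made when the kinases of the integrated stress response phosphorylate the initiation factor eIF2, for example when an amino acid runs short or unfolded protein collects in the endoplasmic reticulum (ER). It binds composite C/EBP-ATF sites, often written TGATGNAA at their core, and induces genes that make, import and charge amino acids. Prolonged activity adds genes of the stress and death programme such as Ddit3, which encodes CHOP. In growing cells, signals from mTORC1 also raise ATF4 and the serine pathway without such stress. Serine made by PHGDH, PSAT1 and PSPH feeds glycine and folate-bound carbon units through the mitochondrial enzymes SHMT2 and MTHFD2, and these supply nucleotide synthesis.

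The 10 genes lie on chromosomes 2, 3, 5, 6, 10, 15 and 19. All had a promoter window in the RefSeq tables of the GRCm38.p6 assembly, and 250 bases upstream of the annotated start were searched on both strands. The core TGATGNAA lay upstream in 2 of the 10, Asns and Chac1, against 3.53% of 27025 genes with a window and 2.09% of the 8236 of them that were tested here. In Asns it reads TGATGAAA at bases -23 to -16, counted from the annotated start, and belongs to what is known as the amino acid response element of this gene. In Chac1 the core is on the opposite strand at bases -193 to -186, in the form TGATGCAA, which 0.825% of all windows hold. Trib3 has a match only past its start, at bases 15 to 22. The stretches around the matches are shown because they differ between members whose levels moved together, with the core in capitals. The Asns stretch is chr6:7693210-7693309, minus strand, and the Chac1 stretch is chr2:119351022-119351121, plus strand.
Asns: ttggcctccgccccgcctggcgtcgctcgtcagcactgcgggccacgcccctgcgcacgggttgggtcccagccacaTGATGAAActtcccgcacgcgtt
Chac1: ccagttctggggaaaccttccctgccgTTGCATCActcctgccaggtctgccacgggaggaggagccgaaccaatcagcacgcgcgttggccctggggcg

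Phgdh and Psat1 hold no TGATGNAA in these windows, which says only that these letters are absent there. Both hold CCAAT, the sequence bound by NF-Y, and it is shown in capitals in their last 100 upstream bases. CCAAT does not overlap the other motif. It was present upstream, on either strand, in 7 of the 10 genes (Phgdh, Psat1, Psph, Mthfd2, Atf4, Ddit3 and Chac1), against 34.5% of all windows and 36.7% of those of tested genes. The Phgdh stretch is chr3:98339970-98340069 and the Psat1 stretch is chr19:15925060-15925159, both on the minus strand.
Phgdh: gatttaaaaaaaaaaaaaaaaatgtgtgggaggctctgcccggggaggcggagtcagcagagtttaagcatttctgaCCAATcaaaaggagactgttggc
Psat1: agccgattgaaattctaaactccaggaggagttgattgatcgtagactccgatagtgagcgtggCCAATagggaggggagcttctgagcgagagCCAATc

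All values are log2 expression levels, so a difference of 1 is a 2-fold change, and levels of different genes are not compared because probe sets differ in brightness. Arrays had medians between 5.60 and 5.69, and 10042 genes with a mean of at least 5.66, the median of all probe sets, were tested with limma. Of the 10 members, 9 passed this filter. Trib3, at a mean of 5.94, lay just inside it, and Chac1, at 5.62, just outside. Shares of all genes given below are shares of the 10042 tested genes, so Chac1 is not among them. The 3 arrays numbered 1 stood apart from the other 6 in every group: limma called 3333 genes (33.2%), of which the arrays numbered 1 were higher for 1109 (11%) and lower for 2224 (22.1%). A second quantile normalization changed this split to 1481 higher and 1731 lower. The count was 1777 when vehicle replicate 1 was left out and 1923 when LCN2 day 0 replicate 1 was. What the number stands for is not given. All 11 macrophage markers on the array passed the filter, with list means of 10.92 to 11.19 on the 9 arrays. All 5 lymphocyte markers on the array (Cd3e, Cd3g, Cd79a, Ms4a1, Ncr1) and 5 of 6 dendritic cell markers (Flt3, Zbtb46, Xcr1, Clec9a, Siglech) were below the filter. The remaining dendritic cell marker, the chemokine receptor gene Ccr7, was higher on the arrays numbered 1 by 0.33 (limma, adjusted p = 0.0256).

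The serine, glycine and asparagine genes were 1.3- to 4.03-fold lower on the arrays numbered 1, and in each treatment group, whereas Ddit3 was level across all 9 arrays. The 6 synthesis enzymes differed by a median of -1.60 between the arrays numbered 1 and the mean of those numbered 2 and 3, and the 4 regulators and stress genes by -0.43, beside -0.06 for all genes tested. For 8 of the 10 members, Chac1 among them, all 3 arrays numbered 1 lay below the other 6. This held for 23.6% of all genes tested, which leave out Chac1. Of the 9 tested members limma placed 6 (Phgdh, Psat1, Shmt2, Mthfd2, Asns and Atf4) among the lower genes, a category that holds 22.1% of all genes; since levels by number were known when the members were chosen, nothing is read from this. The plot of levels by array number shows these patterns gene by gene.

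**Figure D1:**
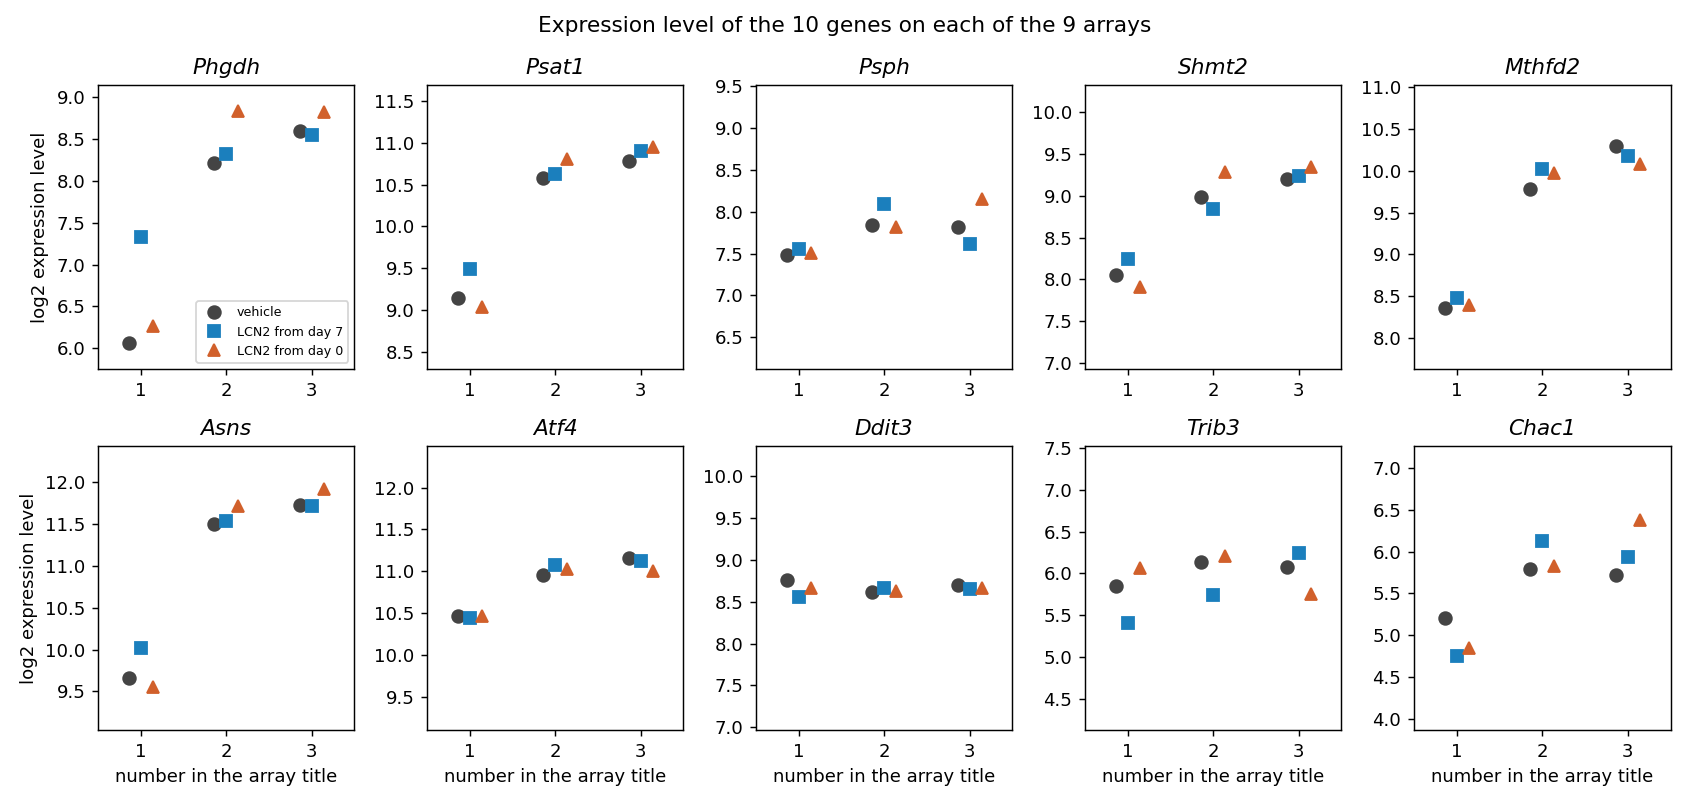
Log2 expression level (y axis, each panel spanning 3.4 units) of the 10 genes on each of the 9 arrays, by the number in the array title (x axis); symbols mark the 3 treatment groups. The arrays numbered 1 lie lowest in all panels except those of Ddit3 and Trib3.

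Phgdh, the first and committed enzyme of serine synthesis from glycolysis, showed the widest range. Its levels on the arrays numbered 1, 2 and 3 were 6.06, 8.21 and 8.60 with vehicle, 7.33, 8.32 and 8.55 with LCN2 from day 7, and 6.26, 8.84 and 8.83 with LCN2 from day 0. All 3 arrays numbered 1 were below every other array, and the LCN2 day 7 array was the highest of the 3. Those of vehicle and LCN2 from day 0 lay near the filter level of 5.66, which makes the size of the difference less certain. The difference between number 1 and the others was -2.01 ± 0.24 (SE; n = 3 and 6 arrays), a 4.03-fold lower level, and 0.09% of tested genes had a lower value.

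Psat1, the aminotransferase of the second step, was likewise lowest on the array numbered 1 of each group. It stood at 9.14, 10.58 and 10.78 with vehicle, 9.49, 10.62 and 10.90 with LCN2 from day 7, and 9.03, 10.80 and 10.95 with LCN2 from day 0. The arrays numbered 1 were again separate from the others, by -1.55 ± 0.11. Psph, the phosphatase that releases serine, differed least among the enzymes: 7.49, 7.85 and 7.82 with vehicle, 7.55, 8.10 and 7.61 with LCN2 from day 7, and 7.51, 7.82 and 8.15 with LCN2 from day 0. Its arrays numbered 1 were the lowest 3 of the 9, but only just, and the difference was -0.37 ± 0.12. The first 2 steps of the pathway and the last thus differed by unlike amounts between the same arrays, and that contrast between genes was not tested.

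Shmt2, which splits serine into glycine and a carbon unit in mitochondria, had levels of 8.06, 8.99 and 9.20 with vehicle, 8.24, 8.85 and 9.24 with LCN2 from day 7, and 7.91, 9.28 and 9.35 with LCN2 from day 0. The difference of number 1 was -1.08 ± 0.12. Mthfd2, the next mitochondrial enzyme, which oxidises that unit, was at 8.36, 9.79 and 10.29 with vehicle, 8.47, 10.03 and 10.17 with LCN2 from day 7, and 8.40, 9.97 and 10.09 with LCN2 from day 0. Its arrays numbered 1 lay within 0.11 of each other and were lower than the rest by -1.65 ± 0.09, or 3.13-fold. Both genes separated the number 1 arrays from the other 6 without overlap.

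Asns, which makes asparagine from aspartate and glutamine, measured 9.66, 11.50 and 11.73 with vehicle, 10.02, 11.54 and 11.72 with LCN2 from day 7, and 9.55, 11.71 and 11.92 with LCN2 from day 0. Every array numbered 1 was more than 1 unit below every other array. The difference was -1.94 ± 0.12, a 3.84-fold lower level, and 0.11% of tested genes had a lower value.

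Atf4, the regulator, varied less between arrays than the enzymes other than Psph. It was at 10.46, 10.96 and 11.16 with vehicle, 10.44, 11.07 and 11.12 with LCN2 from day 7, and 10.46, 11.03 and 11.01 with LCN2 from day 0. The arrays numbered 1 had an SD of 0.014 and lay below all others, with a difference of -0.60 ± 0.08 (1.52-fold). ATF4 is controlled largely by translation, and these arrays measure its mRNA only.

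Ddit3, which encodes the stress factor CHOP, read 8.77, 8.62 and 8.70 with vehicle, 8.56, 8.67 and 8.66 with LCN2 from day 7, and 8.67, 8.63 and 8.66 with LCN2 from day 0. Groups and numbers overlapped, and the difference of number 1 was 0.01 ± 0.08, with values from -0.04 to 0.11 over 15 alternative settings, so its sign depended on the setting. A dimmer second probe set of Ddit3 ranged from 7.36 to 7.65, with a difference of -0.018. Trib3, a pseudokinase that ATF4 and CHOP induce and that restrains ATF4, was at 5.85, 6.14 and 6.08 with vehicle, 5.40, 5.74 and 6.24 with LCN2 from day 7, and 6.07, 6.21 and 5.75 with LCN2 from day 0. Its numbers overlapped, and the difference was -0.25 ± 0.17.

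Chac1, an enzyme that degrades glutathione and a known late target of the ATF4 branch, lay below the filter and was not tested. It was at 5.21, 5.79 and 5.72 with vehicle, 4.75, 6.13 and 5.93 with LCN2 from day 7, and 4.85, 5.83 and 6.38 with LCN2 from day 0. Unlike Ddit3 it was lower on all arrays numbered 1, by -1.03 ± 0.17 in the fit without the filter. Near the background a log2 difference understates a change, so its size is less certain than that of Asns.

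The size of the number 1 difference varied with the group for some genes. Phgdh differed by -2.35 with vehicle, -1.11 with LCN2 from day 7 and -2.57 with LCN2 from day 0. For Asns the 3 values were -1.95, -1.61 and -2.26, and for Psat1 they were -1.53, -1.27 and -1.85. Mthfd2, by contrast, differed by -1.68, -1.62 and -1.63. Among the arrays numbered 1, that of LCN2 from day 7 was the highest for 6 of 6 synthesis enzymes, and for 0 of the other 4 members. It was the highest for 35.2% of all genes tested. This order rests on 1 array a group. The members were chosen with these levels known, so nothing is read from the count. For Psph and Mthfd2 the LCN2 day 0 array numbered 1 differed from that of LCN2 from day 7 by only -0.04 and -0.08. Proliferation genes stood at a list mean of 8.53 on the LCN2 day 7 array numbered 1. On the vehicle and LCN2 day 0 arrays numbered 1 they stood at 8.11 and 7.88. Neutrophil and precursor markers stood at 6.21 against 5.54 and 5.91. The part of either list in the enzyme levels on these arrays was not tested.

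Between the arrays numbered 2 and those numbered 3, the members differed by a median of -0.15, beside -0.016 for all genes, and limma called 0 of 10042 genes (0%; 310 at an unadjusted p under 0.05). Mthfd2 (-0.26 ± 0.10) and Asns (-0.21 ± 0.14) were lower on all 3 arrays numbered 2 than on all 3 numbered 3, a pattern that 5.03% of genes showed.

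LCN2 was compared with vehicle to ask whether adding it to differentiated cells, or during their differentiation, changed this programme. The members' values are a description. The arrays of each pair of groups overlapped for all 10 members, which the low arrays numbered 1 in every group fix for most of them, so nothing is read from it; over all genes they did not overlap for 3.17% (LCN2 from day 7 and vehicle), 5.49% (LCN2 from day 0 and vehicle) and 5% (both LCN2 groups). limma called 0 of 10042 genes (0%) for LCN2 from day 7 against vehicle, 0 (0%) for LCN2 from day 0 against vehicle and 0 (0%) for LCN2 from day 0 against LCN2 from day 7, with 70, 142 and 177 genes at an unadjusted p under 0.05. Both comparisons with vehicle share the same 3 vehicle arrays. This fit has no term for the title number, so its errors take in the difference of the arrays numbered 1 and are wide.

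With LCN2 from day 7, the 10 members differed from vehicle by a median of 0.03, beside 0.003 for all genes, with 8 above 0. The 6 enzymes were all above 0, from 0.02 for Shmt2 to 0.44 for Phgdh. Phgdh had a mean of 7.62 ± 1.37 (SD, n = 3) with vehicle and 8.07 ± 0.65 with LCN2, a difference of 0.44 ± 0.81 (SE). That spread and error take in the low arrays numbered 1. With the title number in the model as a block the error was 0.28. The difference came from the arrays numbered 1, where it was 1.27, while it was 0.11 within number 2 and -0.05 within number 3. Psat1 (0.35, 0.04 and 0.13) was the only member above 0 within all 3 numbers, which held for 11.4% of all genes. Nothing is read from such counts here or below, since 1 of 10 members is near that share. A pairing of arrays within numbers 2 and 3 is also not shown. Trib3 had the lowest value, -0.22 ± 0.21, and Ddit3 differed by -0.07 ± 0.10.

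With LCN2 from day 0, the median difference from vehicle was 0.09, beside -0.015 for all genes, with 7 of 10 members above 0. Phgdh differed by 0.35 ± 0.81 (SE), from 7.62 ± 1.37 (SD) to 7.98 ± 1.49. It was the only member higher within every number, at 0.20, 0.63 and 0.23, as were 11.8% of all genes. Asns differed by 0.10 ± 0.76, with -0.11, 0.22 and 0.19 within the numbers. Chac1 differed by 0.11 ± 0.42 and ranged from -0.36 within number 1 to 0.66 within number 3. Atf4 (-0.03 ± 0.25), Ddit3 (-0.04 ± 0.10) and Mthfd2 (0.006 ± 0.64) had differences close to 0 relative to their errors. When the title number entered the model as a block the errors were smaller, 0.28 for Phgdh, 0.14 for Asns and 0.09 for Atf4, and still no gene was called.

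**Figure D2:**
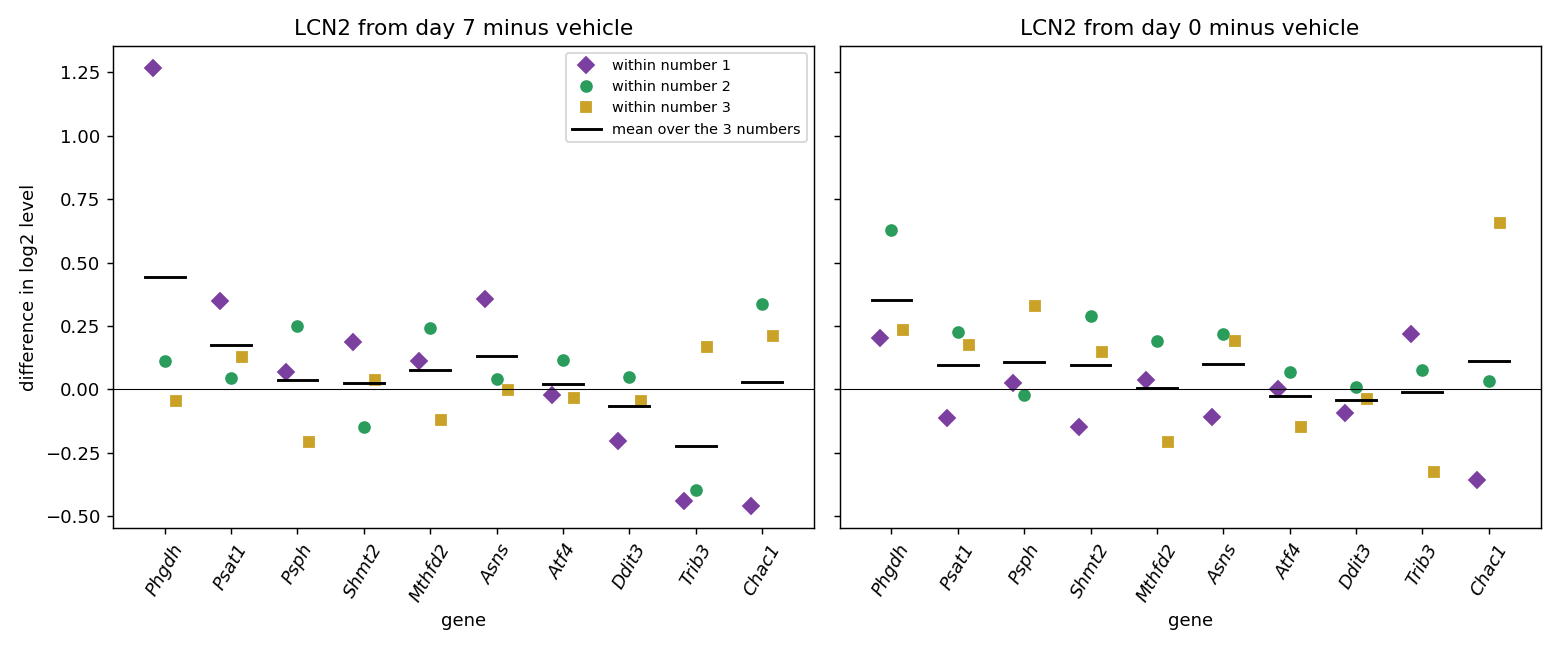
Difference in log2 level from vehicle (y axis) for each of the 10 genes (x axis), with LCN2 from day 7 on the left and from day 0 on the right; symbols are same-number pairs of arrays and bars their mean. The Phgdh pair numbered 1 under LCN2 from day 7, at 1.27, is the highest point, and most other points lie within 0.5 of 0.

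The group comparisons were repeated without the 3 arrays numbered 1, an alternative added after the data were seen. With 2 arrays a group left, LCN2 from day 0 was above vehicle without overlap for Phgdh (0.43), Psat1 (0.20), Shmt2 (0.22) and Chac1 (0.34). That is 4 of 10 members. Of all genes tested, which leave out Chac1, 13.8% were above and 21.2% below in this way. LCN2 from day 7 was above vehicle in this way for Chac1 (0.27) alone, beside 13.9% of genes tested above and 11.8% below. Against LCN2 from day 7, LCN2 from day 0 was higher for Phgdh (0.40) and Shmt2 (0.27), beside 12% of genes. It was lower for Atf4 (-0.08), beside 20.2%. The members were chosen with these levels known, and only 2 arrays a group remain, so nothing is read from these patterns. limma called 0 genes in these 3 comparisons, with 438, 207 and 597 at an unadjusted p under 0.05 in the order day 0 against vehicle, day 7 against vehicle and day 0 against day 7.

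The LCN2 groups differed from each other by a median of -0.004 over the 10 members. Trib3 had the highest value, 0.21 ± 0.21, and Phgdh the lowest, -0.09 ± 0.81. Phgdh differed by -1.07 within number 1 but by 0.52 and 0.28 within numbers 2 and 3. Mthfd2 was the only member lower within all 3 numbers, at -0.08, -0.05 and -0.09, as were 12.9% of all genes. The dose of the day 7 group is not given, so time and dose cannot be told apart.

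Genes of the same response outside the 10 members were tested by number. These lists too were chosen with earlier results of these arrays known, so their counts and p-values are not independent evidence of a direction. Cytosolic tRNA synthetases, which charge tRNAs and include several ATF4 targets, were lower on the arrays numbered 1 for 13 of 18 tested genes and higher for 0 (limma, adjusted p under 0.05), with a median of -0.64, beside 22.1% lower and 11% higher among all genes. Iars fell by 1.04 (adjusted p = 0.000122) and Cars fell by 0.98 (adjusted p = 0.000375). Rars (-0.10) and Farsa (-0.15) did not pass. Folate and glycine genes were lower for 14 of 17 and higher for 1, with a median of -0.48. Mthfd1l, a mitochondrial formate-making enzyme, fell by 0.99 (adjusted p = 0.000884) and Ppat, the first enzyme of purine synthesis, fell by 0.78 (adjusted p = 0.000804). Aldh1l1, which consumes folate-bound carbon units, rose by 0.48 (adjusted p = 0.0431), and this call was lost when any 1 of the vehicle arrays, or LCN2 day 0 replicate 1 or 2, was left out. Slc25a32, the mitochondrial folate carrier, did not pass (0.15).

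Other ATF4 targets split in both directions, with 6 of 14 tested genes lower and 3 higher and a median of -0.20. Among all genes tested 22.1% were lower and 11% higher. Without vehicle replicate 1 the counts were 4 lower and 3 higher, and with a variance trend in limma 7 lower and 4 higher. Nupr1, a stress-induced chromatin protein, fell by 1.10 (adjusted p = 6.3e-05), from 8.20 ± 0.08 (SD, n = 6) on the other arrays to 7.10 ± 0.09 (n = 3). Aldh18a1, which starts proline synthesis, fell by 1.08 (adjusted p = 0.000137). Rcan1, a calcineurin regulator, rose by 1.04 (adjusted p = 0.00152), and Cebpb, which encodes a C/EBP factor that can pair with ATF4, rose by 0.79 (adjusted p = 0.00107). A further 8 genes on the array were too dim to test (Aldh1l2, Cbs, Cth, Ddit4, Fgf21, Ppp1r15a, Stc2 and Vldlr).

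Amino acid transporters also went both ways, with 5 of 14 lower and 2 higher (median -0.11). Among all genes tested 22.1% were lower and 11% higher, and 2 of 14 is near that 11%. Slc38a2, the starvation-induced carrier of small neutral amino acids, fell by 0.99 (adjusted p = 0.000225) and Slc7a8, a carrier of large neutral ones, fell by 0.88 (adjusted p = 0.000252). Slc7a11, the cystine importer that both ATF4 and the antioxidant factor NRF2 induce, rose by 1.67 (adjusted p = 0.000408), from 7.54 ± 0.24 to 9.22 ± 0.27. Slc36a1, a lysosomal carrier, rose by 0.53 (adjusted p = 0.00903). Without vehicle replicate 1 a single transporter was called higher in place of 2. Slc7a11 thus ran opposite to Asns and Phgdh on the same arrays.

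Of 14 genes of the eIF2 circuit, the kinases and factors upstream of ATF4, 3 were lower and 0 higher (median -0.19), a share near the 22.1% lower among all genes. They were the eIF2 subunit genes Eif2s2 at -0.47 (adjusted p = 0.00489) and Eif2s3x at -0.44 (adjusted p = 0.00529) and, named after its value was seen, the kinase gene Eif2ak2 at -0.42 (adjusted p = 0.00937). Dnajc3 (0.09) and Eif2b3 (0.07) had the highest values and did not pass. Of the ER unfolded protein response outside the ATF4 branch, 1 of 17 genes was lower, Atf6 at -0.31 (adjusted p = 0.0144), and 1 higher, Sdf2l1 at 0.31 (adjusted p = 0.0343), with a median of -0.06. Hspa5, the ER chaperone BiP, stood at -0.22 and Dnajb9 at 0.43, and neither passed. Atf6 lost its call when vehicle replicate 1 or 2 or LCN2 day 0 replicate 1 was left out. Sdf2l1 lost its call in the same 3 cases and also when LCN2 day 7 replicate 1 or 2 was left out. With a variance trend in limma 3 genes of this list were lower and 2 higher, and with no group term 2 were lower and 2 higher. Mitochondrial stress genes were lower for 6 of 10, with the chaperone gene Hspd1 at -0.49 (adjusted p = 0.00653) and the protease gene Lonp1 at -0.49 (adjusted p = 0.0157), and with Dele1 (-0.09) and Clpp (-0.14) not passing. Leaving out vehicle replicate 1 lowered that count to 1, leaving out LCN2 day 0 replicate 1 lowered it to 2, and leaving out vehicle replicate 3 or LCN2 day 7 replicate 1 lowered it to 3. In the 3 group comparisons 0 genes of any of these lists were called, as 0% of all genes were.

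**Figure D3:**
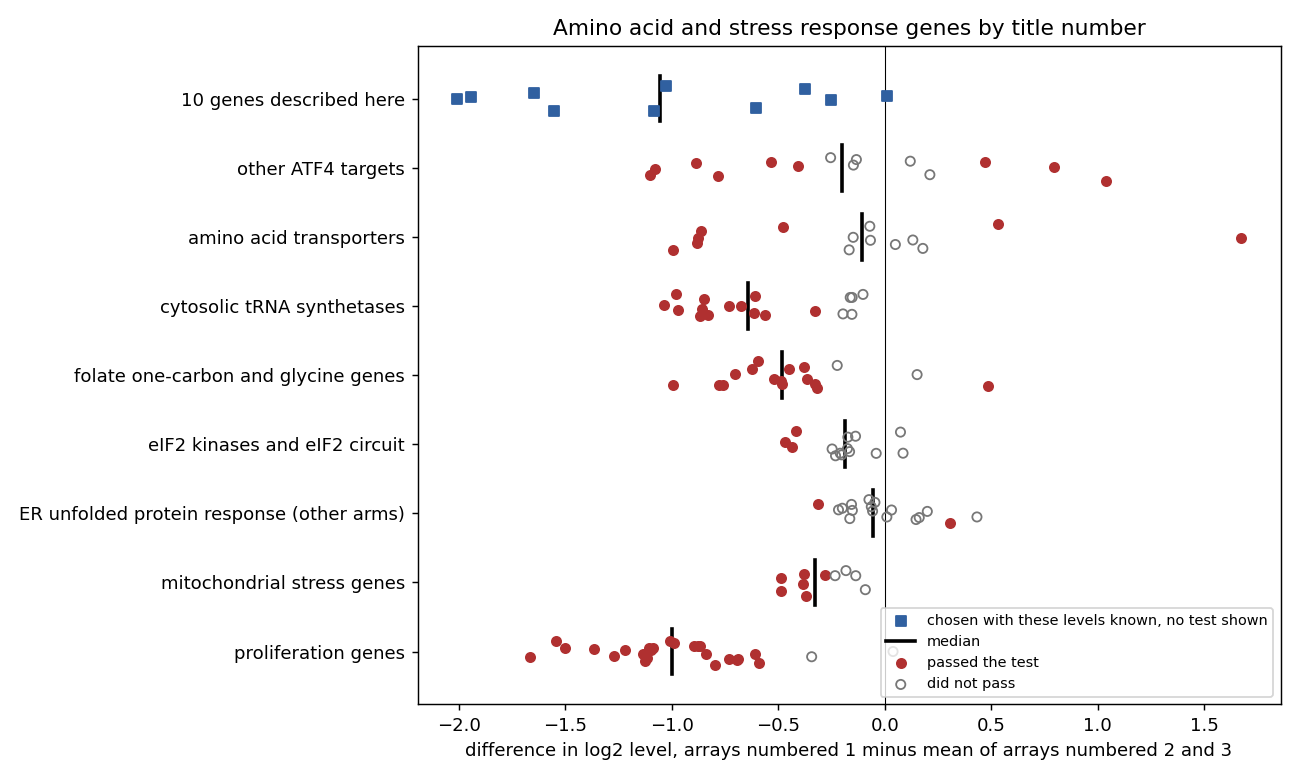
Difference in log2 level between the arrays numbered 1 and the mean of those numbered 2 and 3 (x axis) for the tested genes of each list (y axis), filled where limma's adjusted p was under 0.05; black bars are medians and squares the 10 genes chosen with these levels known. The tRNA synthetases, folate genes and proliferation genes lie to the left, and those of the ER unfolded protein response around 0.

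Markers of proliferation and of other cell types moved with the array number beside these genes. Among all genes tested, 22.1% were lower on the arrays numbered 1 and 11% higher. Of 26 tested proliferation genes 24 were lower and 0 higher, with a median of -0.999. Their list mean was 7.88 to 8.53 on the arrays numbered 1 against 8.94 to 9.26 on the others. Kif11 fell by 1.67 (adjusted p = 0.00253) and Bub1b fell by 1.54 (adjusted p = 0.00238), while Tk1 (-0.34) and Pcna (0.04) did not pass. Neutrophil and precursor markers were lower for 6 of 7 tested (median -1.44), with a list mean over 10 markers of 5.54 to 6.21 on the arrays numbered 1 and 6.82 to 7.31 on the others. Camp, Ctsg and Retnlg were below the filter. Monocyte markers were lower for 3 of 4 (list mean over 5 markers 6.47 to 6.87 against 7.05 to 7.43), with Cd177 dim. The fourth, Fn1, which encodes fibronectin, was higher by 1.82 (adjusted p = 0.00347). Osteoclast markers were higher for 2 of 4 and lower for 1 (list mean over 6 markers 7.41 to 7.84 against 6.65 to 7.32), with Calcr and Oscar dim. Macrophage markers had a median of 0.006, with 4 of 11 higher and 2 lower, so that median covers differences both ways. The higher ones were Chil3 (1.51), Mertk (0.77), Retnla (0.70) and Lyz2 (0.47), and the lower ones Fcgr1 (-0.98) and Arg1 (-0.64). Of 2 tested stromal markers Cxcl12, which encodes a chemokine, was higher by 0.65 (adjusted p = 0.00824), and of 2 mast cell and basophil markers 0 passed. In these bulk samples, fewer cells of a type and less RNA per cell cannot be told apart, and the part of proliferation or cell makeup in the levels of the serine and asparagine genes was not tested.

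**Figure D4:**
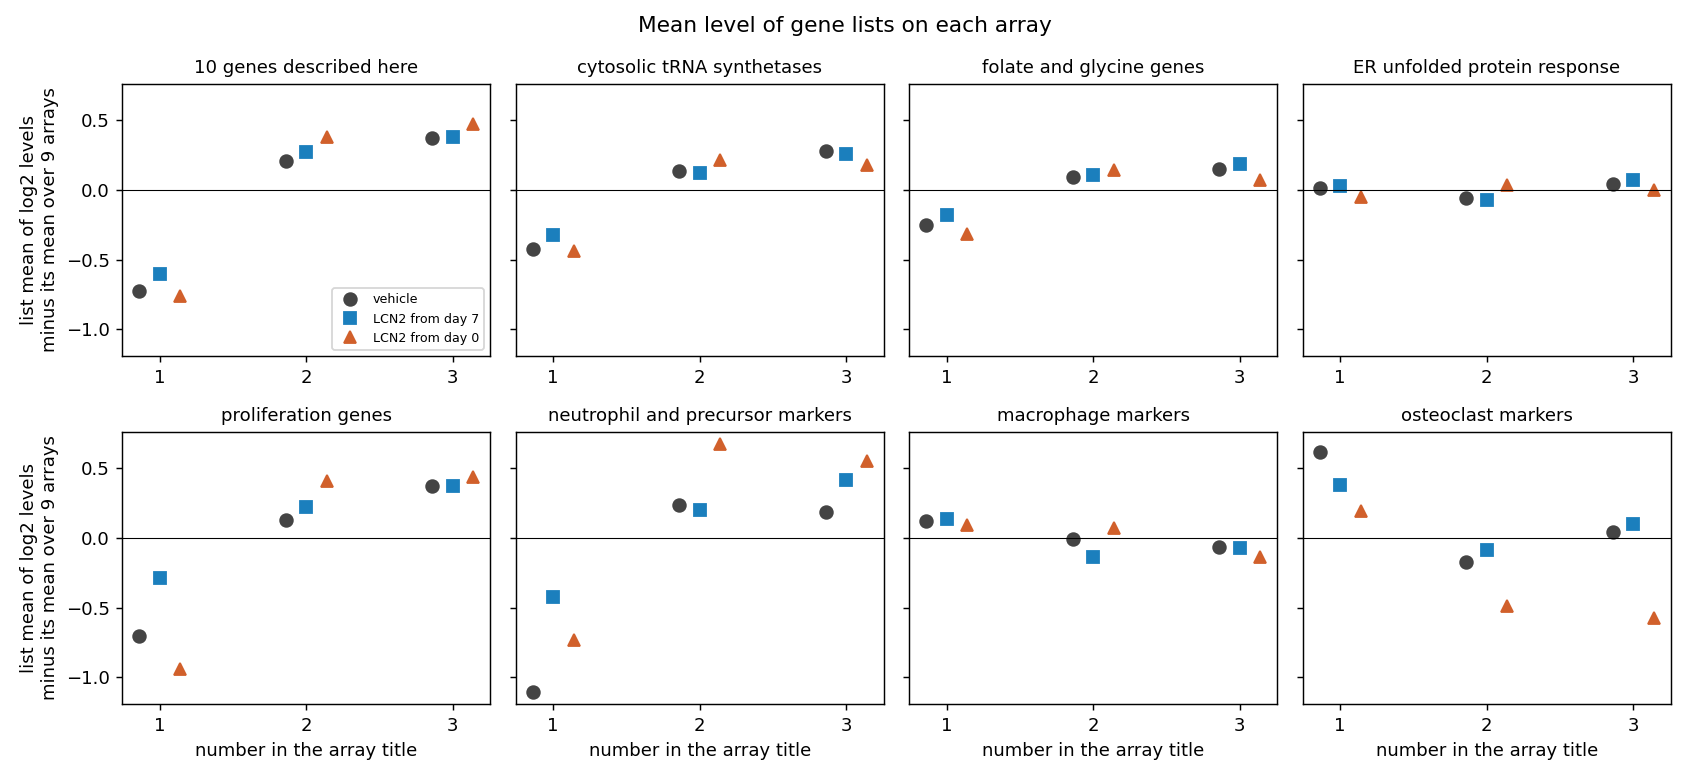
Mean log2 level of each list on each array, relative to its own mean over the 9 arrays (y axis), by the number in the array title (x axis), with symbols for the 3 groups. The 10 genes, the tRNA synthetase, folate, proliferation and neutrophil lists are lowest on the arrays numbered 1, the osteoclast list is highest there, and the ER list differs little.

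Outside the members, the genes most like Asns over the 9 arrays, by the root mean square difference of levels centred on each gene's mean, were Chek1 (0.15), a DNA damage checkpoint kinase, Aqp9 (0.17), a glycerol channel, Fnip2 (0.17), Ptpn22 (0.20), a lymphoid phosphatase, and Melk (0.20). Psat1 (0.19) ranked 4 and Mthfd2 (0.20) ranked 7 among the 10041 other tested genes, whereas Atf4 (0.65) ranked 638 and Ddit3 (0.94) ranked 5871. Nearest to Phgdh outside the members were the neutrophil granule gene Ngp (0.17), S100a9 (0.17), Ly6c1 (0.24), Lcn2 (0.26), which encodes the protein used as treatment, and Chek1 (0.28), with Asns (0.24) at rank 4. The profiles of Asns and Phgdh vary mainly with the array number, so genes chosen for likeness to them were bound to be lower on the arrays numbered 1. Lcn2, for example, differed by -1.78.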

How the data were processed

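RNA of the 9 samples was labelled after amplification for small inputs and hybridised to 1-colour expression arrays. The authors deposited log2 expression values per probe set. Per the submitters' processing notes, which give no versions, they were made with the R package oligo and RMA. RMA corrects background, equalises probe distributions and summarises probes, which is meant to remove global shifts between arrays. Small shifts remained, with array medians from 5.60 to 5.69. A second quantile normalization moved the median difference of all genes for number 1 from -0.064 to -0.008. Of 22203 probe sets 19572 carried 1 gene symbol, 0 several and 2631 none, and 0 symbols changed by Entrez match to RefSeq GRCm38.p6. For each of 19505 genes the probe set with the highest mean was kept, and genes with a mean under 5.66 were left out. limma 3.58.1 in R 4.3.3 was fitted to all 9 arrays with 1 mean per group; numbers were compared with number and group in the model. P-values were adjusted by Benjamini-Hochberg over 10042 genes. Depth is not defined for arrays, and their number limits the precision.

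The members and lists were chosen with earlier results of these data known. Genes named with a difference from a pathway list are the 2 highest and 2 lowest by number, with Eif2ak2 added. Cell type markers named with a difference by number are instead ones that limma called. Likeness was ranked for Asns and Phgdh. List symbols not matched to a probe set were not analysed here. Same-numbered arrays deviated from their group means together, with 9 of 9 correlations above 0.1 (from 0.16 to 0.82). The title number was taken to pair arrays. Number 1 alone stood out, at 0.74 to 0.82. Arrays of different numbers gave -0.75 to 0.69. Those numbered 2 and 3 correlated across numbers about as well as within them. The LCN2 arrays numbered 2 gave 0.16, whereas the day 7 array numbered 2 and the day 0 array numbered 3 gave 0.50. Centring on groups of 3 arrays lets the deviation of number 1 push numbers 2 and 3 together. A pairing within numbers 2 and 3, on which differences within those numbers rest, is thus not shown. The number 1 comparison, tested on simulated data of 10042 genes, called 98.4% of 3-fold, 88.6% of 2-fold and 63.6% of 1.5-fold changes and 0.1% of unchanged genes. These rates do not apply to the LCN2 comparisons, for which none are given here. Alternatives were the filter, the probe set rule, 2 normalizations, a variance trend, the replicate block, no group term and leaving out arrays.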

Additional observations from a re-analysis of the deposited data

How the results depend on the processing

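LCN2 comparisons called 0 genes under every alternative run, among them the replicate block (259, 497 and 539 genes at an unadjusted p under 0.05 for day 7 against vehicle, day 0 against vehicle and day 0 against day 7). With 1 array per group and number the block cannot change a group difference, so the members' medians of 0.032, 0.095 and -0.004 are the same with it by construction; it changes the errors only. Leaving out single arrays unbalances the numbers. Doing so, the members' median ran from -0.315 to 0.373 for day 7 against vehicle, from -0.238 to 0.539 for day 0 against vehicle and from -0.305 to 0.487 for day 0 against day 7. Without the 3 arrays numbered 1 the last was 0.094. The count of genes differing for number 1 ran from 1777 to 3612 without single arrays, and from 2708 to 3693 over the other alternatives. The members' median for number 1 was -1.09 with arrays centred on their medians and -1.03 after quantile normalization. Over 15 alternatives the difference ranged from -2.46 to -1.73 for Phgdh, from -2.11 to -1.78 for Asns and from -0.42 to -0.09 for Trib3. Without the filter on dim genes 3 mitochondrial stress genes were lower in place of 6, and Aldh1l1 and Sdf2l1 were no longer called; Sdf2l1 was also lost with arrays centred on their medians. Other settings added calls to the ER list, up to 3 lower and 2 higher.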
